A study of Mus musculus with 6 samples.

Results

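The 10 genes described here, which mark resident myeloid and antigen-presenting cells, were measured in bulk poly-A RNA of mouse olfactory epithelium: C1qa, C1qb, C1qc, Csf1r, Cd68, Lyz2, Cd74, H2-Aa, S100a8 and S100a9. They were chosen by symbol, and all 10 were found among the 53686 gene symbols of the count table. There were 3 libraries from tissue labelled hemizygous for the 5x21-OR1A1 transgene and 3 from tissue labelled wild-type, all given as strain C57BL/6J. OR1A1 is a human odorant receptor gene, and the study's title concerns how an olfactory neuron comes to express its receptor. The labels give no age, sex, housing, transgene copy number or founder line. They number the libraries 1 to 3 in each group without saying that each is a different animal, so the p-values reflect library-to-library spread, part of which may be technical.

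The olfactory epithelium loses and replaces sensory neurons throughout life, and macrophages in the epithelium and the underlying lamina propria are known to clear dying cells. Tissue macrophages depend on the receptor encoded by Csf1r and secrete C1q, the recognition molecule of the classical complement pathway. Antigen-presenting cells load peptides on MHC class II molecules with the help of the invariant chain, Cd74. Neutrophils carry large amounts of calprotectin, the S100a8 and S100a9 pair, into tissue from blood.

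The 3 5x21-OR1A1 libraries held 27506217 to 35423577 counts and the 3 wild-type libraries 30177731 to 35804712. Levels are given as CPM, counts relative to library totals that were scaled by TMM, a method that assumes most genes to be alike between libraries. The tissue's own genes were present in every library, with Omp, the olfactory marker protein of mature neurons, at 6699.8, 7005 and 6655 CPM in 5x21-OR1A1 libraries 1, 2 and 3, against 9695, 12518 and 12341 CPM in wild-type libraries 1, 2 and 3. By Xist and Y-linked counts 2 of the 5x21-OR1A1 libraries and 1 of the wild-type libraries were female. Single libraries stood apart. Wild-type library 2 was the lowest for 8 of the 10 genes, and an MHC class II gene outside the 10 was present in a single library. H2-Ea-ps had 383, 0 and 0 counts in 5x21-OR1A1 libraries 1, 2 and 3, against 0, 1 and 0 in wild-type libraries 1, 2 and 3. Fold changes of Cd74, H2-Aa, H2-Ab1 and H2-Eb1 are therefore given below with and without 5x21-OR1A1 library 1. Other MHC class II pathway values include that library.

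None of the 10 genes passed the test between the genotypes. All 10 had enough counts to test, from 233 to 18031 in a library. In edgeR's quasi-likelihood test with Benjamini-Hochberg adjustment over 19267 genes, 0 of 10 passed an adjusted p of 0.05, against 2.71% of all tested genes (0.519% higher and 2.2% lower). Their adjusted p ran from 0.462 to 0.979. At an unadjusted p under 0.05 the count was 0 of 10, against 17.1% of all tested genes, and DESeq2 and limma-voom also called 0. The CPM of the 2 groups overlapped for every one of the 10, whereas 23.8% of all tested genes showed no overlap. The median log2 fold change of the 10 was 0.02, beside 0.02 for all tested genes. When libraries were instead scaled to 14 mature neuron markers, which put the median of all genes at 0.71, 6 of the 10 were called higher, among 14962 genes in all. Intervals were wide enough that the test does not show equal levels: over the 10 genes the bounds of the 95% intervals ran from -1.15 to 1.24 on the log2 scale. In bulk tissue, fewer cells of a type and less RNA per cell cannot be told apart.

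**Figure D1:**
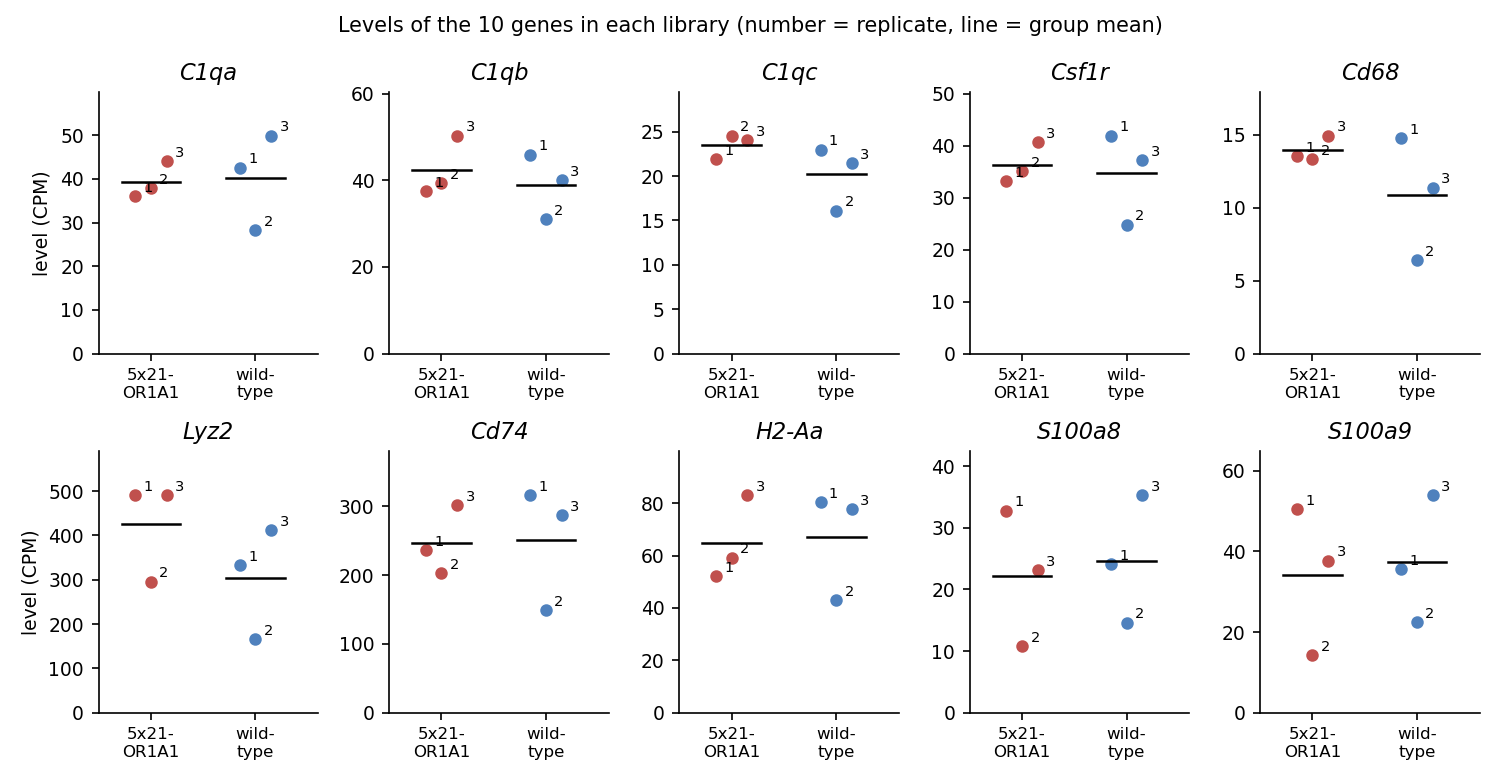
Level of each of the 10 genes in CPM (y axis from 0, a separate scale per gene) in the 5x21-OR1A1 and wild-type libraries. Points are libraries numbered by replicate and lines are group means (n = 3). In all panels the groups overlap, and wild-type library 2 is the lowest point for 8 of the 10 genes.

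The 3 C1q genes encode the A, B and C chains that assemble into the complement protein and lie side by side on the minus strand of chromosome 4 (GRCm38, GENCODE M21). C1qb (ENSMUSG00000036905.8) spans 136880129 to 136886187, C1qc (ENSMUSG00000036896.5) 136889804 to 136893065 and C1qa (ENSMUSG00000036887.5) 136895917 to 136898803. The stretch just before C1qb is shown as the window of the C1q cluster that overlaps no annotated exon of its own gene. It is the 200 bases upstream of the RefSeq start, at chr4:136886201-136886400 on the minus strand of GRCm38.p6, with the letters GAGGAA, the core bound by the myeloid factor PU.1, in capitals.
C1qb: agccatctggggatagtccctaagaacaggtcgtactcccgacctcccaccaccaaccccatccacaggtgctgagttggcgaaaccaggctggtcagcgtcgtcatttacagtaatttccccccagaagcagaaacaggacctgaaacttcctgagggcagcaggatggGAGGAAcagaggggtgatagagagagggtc
The match begins 30 bases before the start. Searched on both strands, GAGGAA was present in 19.03% of all 32851 promoter windows of this length, so a match is a description and not a binding site. Promoter windows were found for 7 of the 10 genes (C1qb, C1qc, Cd68, Lyz2, H2-Aa, S100a8 and S100a9), and C1qb, C1qc and S100a8 held GAGGAA.

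C1qa had 36.01, 37.9 and 44.2 CPM in 5x21-OR1A1 libraries 1, 2 and 3, against 42.6, 28.3 and 49.9 CPM in wild-type libraries 1, 2 and 3. The 3 5x21-OR1A1 values lay inside the wild-type range. The log2 fold change was -0.03 (SE 0.19, edgeR adjusted p = 0.956). C1qb had 37.5, 39.3 and 50.3 CPM in the 5x21-OR1A1 libraries, against 45.9, 31.1 and 40.0 CPM in the wild-type ones, a log2 fold change of 0.12 (SE 0.16, edgeR adjusted p = 0.769). Its highest value was in 5x21-OR1A1 library 3 and its lowest in wild-type library 2. C1qc had 21.9, 24.6 and 24.1 CPM in the 5x21-OR1A1 libraries, against 23.0, 16.1 and 21.4 CPM in the wild-type ones. It had the lowest adjusted p of the 10 genes, and still the groups overlapped through wild-type library 1 (log2 fold change 0.22, SE 0.14, edgeR adjusted p = 0.462).

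The proportions of the chains were compared next. C1qa counts over C1qb counts were 0.960, 0.966 and 0.878 in the 5x21-OR1A1 libraries, against 0.927, 0.912 and 1.25 in the wild-type ones. Wild-type library 3 was the exception among the 6. C1qc counts over C1qb counts were 0.584, 0.625 and 0.479 in the 5x21-OR1A1 libraries, against 0.501, 0.519 and 0.536 in the wild-type ones. Per kilobase of annotated exon, C1qb averaged 38.9 ± 6.37 CPM and C1qa 37.9 ± 4.09 CPM in 5x21-OR1A1 tissue (SD, n = 3), a difference within their spread. C1qc, with more annotated exon sequence, stood at 12.2 ± 0.740 CPM per kilobase.

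Csf1r encodes the receptor for the growth factors CSF1 and IL-34, Cd68 a glycoprotein of macrophage lysosomes, and Lyz2 the lysozyme of macrophages and neutrophils. Csf1r (ENSMUSG00000024621.16, chromosome 18, 61100598 to 61132149, plus strand) had 33.3, 35.1 and 40.8 CPM in the 5x21-OR1A1 libraries, against 41.9, 24.8 and 37.2 CPM in the wild-type ones. The 5x21-OR1A1 values again fell within the wild-type range (log2 fold change 0.07, SE 0.18, edgeR adjusted p = 0.885). Of its exon bases, 873 are shared with Hmgxb3 on the opposite strand, and without strand in these libraries such reads cannot be assigned. Hmgxb3 had 41.7, 37.6 and 35.8 CPM in the 5x21-OR1A1 libraries, against 39.2, 50.9 and 40.02 CPM in the wild-type ones, and the Csf1r level is uncertain to the extent of the shared reads.

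Lyz2 (ENSMUSG00000069516.8, chromosome 10, 117277331 to 117282321, minus strand) was the most abundant of the 10 genes. It had 491, 296 and 490.4 CPM in the 5x21-OR1A1 libraries, against 333, 166 and 411 CPM in the wild-type ones. Means were 426 ± 113 CPM in 5x21-OR1A1 tissue and 303 ± 125 CPM in wild-type tissue (SD, n = 3 each). That difference was within the spread (log2 fold change 0.49, SE 0.33, edgeR adjusted p = 0.502), and its 95% interval ran from -0.26 to 1.24. Without wild-type library 2 the value was 0.20. Lyz1, the neighbouring and near-identical lysozyme gene, had 64, 23 and 137 counts in the 5x21-OR1A1 libraries, against 42, 17 and 54 in the wild-type ones. Reads shared by such copies may have been dropped or split, so the levels of both lysozyme genes are uncertain. Lyz2 counts over Csf1r counts were 14.8, 8.42 and 12.03 in the 5x21-OR1A1 libraries, against 7.93, 6.69 and 11.1 in the wild-type ones, and the groups overlapped. Cd68 counts over Csf1r counts were 0.407, 0.380 and 0.367 in the 5x21-OR1A1 libraries, against 0.352, 0.258 and 0.306 in the wild-type ones, and did not overlap, a difference that was not tested.

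Cd68 (ENSMUSG00000018774.13, chromosome 11, 69664213 to 69666153, minus strand) had 13.5, 13.3 and 14.95 CPM in the 5x21-OR1A1 libraries, against 14.8, 6.40 and 11.4 CPM in the wild-type ones. The 5x21-OR1A1 libraries were tightly grouped and wild-type library 2 lay below all others. The log2 fold change of Cd68 was 0.36 (SE 0.26, edgeR adjusted p = 0.534) and became 0.10 without wild-type library 2. Its upstream window is at chr11:69666171-69666370 on the minus strand of GRCm38.p6. It is shown as the only window of these 3 macrophage genes that overlaps no annotated exon of its own gene. Capitals mark CCAAT, the letters bound by the general factor NF-Y.
Cd68: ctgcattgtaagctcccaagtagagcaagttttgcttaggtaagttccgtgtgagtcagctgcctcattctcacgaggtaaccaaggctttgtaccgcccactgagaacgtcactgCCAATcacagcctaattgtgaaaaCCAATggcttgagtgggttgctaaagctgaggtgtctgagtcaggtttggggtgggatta
The matches begin 84 and 60 bases before the RefSeq start. CCAAT or its complement ATTGG was present in 29.3% of all windows.

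Of 25 other macrophage and monocyte genes, 24 were tested, 0 passed in either direction and the median log2 fold change was 0.11. Adgre1, which encodes the F4/80 antigen of mouse macrophages, had 6.57, 5.83 and 6.89 CPM in the 5x21-OR1A1 libraries, against 6.41, 4.89 and 5.64 CPM in the wild-type ones (edgeR adjusted p = 0.587). Lgmn, a lysosomal endopeptidase that is not restricted to macrophages, was at 161 ± 5.19 CPM in 5x21-OR1A1 tissue and 200.2 ± 16.3 CPM in wild-type tissue (SD, n = 3 each) with no overlap. Its log2 fold change of -0.31 (SE 0.08) did not pass in edgeR (adjusted p = 0.111) and did in DESeq2 (adjusted p = 0.0141). Laptm5, a lysosomal membrane protein of blood cells, had a value of -0.03.

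Ligands of the receptor and factors that specify myeloid cells were a further list. Of 11 genes tested in that list 0 passed, with a median of 0.10. Csf1 was at 14.5, 12.8 and 13.5 CPM in the 5x21-OR1A1 libraries, against 12.6, 10.4 and 11.4 CPM in the wild-type ones. Those groups did not overlap, and the log2 fold change was 0.25 (SE 0.11, edgeR adjusted p = 0.323). Il34, the second ligand, averaged 5.03 ± 0.798 CPM in 5x21-OR1A1 tissue and 5.32 ± 1.32 CPM in wild-type tissue (SD, n = 3 each; edgeR adjusted p = 0.888). Cebpa and Runx1, transcription factors also used outside the myeloid lineage, were the most abundant of the list, with log2 fold changes of 0.19 and 0.15. Of 12 tested lysosomal genes 0 passed in edgeR, with a median of 0.01. Psap and Ctsb, a saposin precursor and a cathepsin, had log2 fold changes of -0.22 and -0.21 (edgeR adjusted p = 0.328 and 0.309), and both were called lower by DESeq2 (adjusted p = 0.0403 and 0.0404).

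In the complement cascade 13 of 15 genes were tested and 0 passed, with a median of 0.12. C3, the central component, had 41.6, 78.2 and 49.8 CPM in the 5x21-OR1A1 libraries, against 66.9, 35.5 and 42.5 CPM in the wild-type ones. The highest and the lowest value were thus in different genotypes, and the groups overlapped (log2 fold change 0.23, SE 0.28, edgeR adjusted p = 0.743). Without 5x21-OR1A1 library 1 the value for C3 was 0.41, without 5x21-OR1A1 library 2 it was -0.08, and without wild-type library 2 it was 0.05. C4b, which C1q activation leads to cleave, had 13.7 ± 5.14 CPM in 5x21-OR1A1 tissue and 13.6 ± 7.16 CPM in wild-type tissue (SD, n = 3 each). Serping1, the inhibitor of the C1 proteases, had a log2 fold change of 0.15 (SE 0.11, edgeR adjusted p = 0.549).

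Cd74 is the invariant chain that guides MHC class II molecules to the peptide-loading compartment, and H2-Aa encodes the alpha chain of the I-A molecule. H2-Aa (ENSMUSG00000036594.15, chromosome 17, 34282744 to 34287823, minus strand) is the I-A gene followed here. Its upstream window, chr17:34287824-34288023 on the minus strand of GRCm38.p6, is shown because MHC class II promoters are known to carry conserved X and Y boxes. Capitals mark TGACGTCA, the cyclic AMP response element, and ATTGG, the reversed CCAAT of a Y box.
H2-Aa: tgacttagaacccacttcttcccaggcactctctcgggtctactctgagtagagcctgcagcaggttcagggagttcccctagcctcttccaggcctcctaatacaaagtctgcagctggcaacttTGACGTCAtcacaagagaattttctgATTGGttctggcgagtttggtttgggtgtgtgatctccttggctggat
The matches begin 74 and 48 bases before the RefSeq start. TGACGTCA, which reads the same on both strands, was present in 1.47% of all windows. No other matched member held it.

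Cd74 (ENSMUSG00000024610.15, chromosome 18, 60803848 to 60812652, plus strand) had 236, 203 and 302 CPM in the 5x21-OR1A1 libraries, against 317, 149 and 287 CPM in the wild-type ones. The wild-type libraries held both the highest and the lowest value. Its log2 fold change was -0.02 (SE 0.27, edgeR adjusted p = 0.979). H2-Aa had 52.0, 59.2 and 83.2 CPM in the 5x21-OR1A1 libraries, against 80.5, 42.9 and 77.9 CPM in the wild-type ones. In each genotype 1 or 2 libraries were near 80 CPM and the others lower, and the log2 fold change was -0.05 (SE 0.26, edgeR adjusted p = 0.947). Cd74 counts over H2-Aa counts were 4.54, 3.43 and 3.63 in the 5x21-OR1A1 libraries, against 3.93, 3.48 and 3.68 in the wild-type ones. Per kilobase of exon Cd74 averaged 147 ± 30.0 CPM and H2-Aa 17.1 ± 4.30 CPM in 5x21-OR1A1 tissue (SD, n = 3). These lengths take in every annotated exon base of a gene, 1679 for Cd74 and 3798 for H2-Aa. The gap per kilobase therefore depends on the annotation.

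The partner chains of H2-Aa were measured as well. H2-Ab1, the I-A beta chain, had 47.7, 71.1 and 89.9 CPM in the 5x21-OR1A1 libraries, against 100.9, 49.2 and 85.9 CPM in the wild-type ones (log2 fold change -0.18, SE 0.29, edgeR adjusted p = 0.810). H2-Eb1, the I-E beta chain, had 57.0, 62.1 and 83.7 CPM in the 5x21-OR1A1 libraries, against 91.6, 47.1 and 80.9 CPM in the wild-type ones (log2 fold change -0.12, edgeR adjusted p = 0.856). 5x21-OR1A1 library 1 and wild-type library 2 were the low libraries for both beta chains. H2-Ab1 counts over H2-Aa counts were 0.917, 1.201 and 1.08 in the 5x21-OR1A1 libraries, against 1.25, 1.147 and 1.103 in the wild-type ones, so the ratio was lowest in 5x21-OR1A1 library 1. Ciita, the transactivator of MHC class II genes, averaged 1.59 ± 0.225 CPM in 5x21-OR1A1 tissue and 1.49 ± 0.447 CPM in wild-type tissue (SD, n = 3 each; edgeR adjusted p = 0.895). In all, 14 other MHC class II pathway genes were tested and 0 passed, with a median of -0.08.

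H2-Ea-ps is the I-E alpha chain gene, which C57BL/6 mice are known to carry in a silent form that lacks its promoter. It is annotated as a polymorphic pseudogene at 34341959 to 34344645 on the minus strand of chromosome 17 (GRCm38), and was looked up as a check of strain. Its level of 10.4 CPM in 5x21-OR1A1 library 1 stood beside 0 and 0 CPM in 5x21-OR1A1 libraries 2 and 3 and at most 0.0275 CPM in a wild-type library. That library therefore went against its strain label at this gene, and why was not tested. Without 5x21-OR1A1 library 1 the log2 fold changes were 0.01 for Cd74, 0.09 for H2-Aa, 0.04 for H2-Ab1 and -0.004 for H2-Eb1 (edgeR adjusted p = 0.995, 0.930, 0.975 and 0.999).

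Antigen presentation was followed in further lists. Of 12 dendritic cell genes 10 were tested and 0 passed in edgeR, with a median of -0.07. Zbtb46, a transcription factor of classical dendritic cells and endothelium, had 17.6, 16.6 and 16.7 CPM in the 5x21-OR1A1 libraries, against 20.8, 24.3 and 21.0 CPM in the wild-type ones. It had a log2 fold change of -0.37 (SE 0.09), which edgeR did not call (adjusted p = 0.0891) and DESeq2 did (adjusted p = 0.0353). The costimulatory gene Cd86 stayed between 0.879 and 2.37 CPM. Of 10 MHC class I pathway genes 0 passed, with a median of -0.17. H2-K1, a classical class I heavy chain, had 142, 181 and 212 CPM in the 5x21-OR1A1 libraries, against 246, 152 and 262 CPM in the wild-type ones (edgeR adjusted p = 0.534). Its log2 fold change was -0.30 with all libraries, -0.16 without 5x21-OR1A1 library 1 and -0.51 without wild-type library 2. Tapbp, which bridges class I molecules and the peptide transporter, had a log2 fold change of -0.25 (edgeR adjusted p = 0.198).

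S100a8 and S100a9 encode the subunits of calprotectin, a calcium- and zinc-binding protein of neutrophil cytoplasm that stressed keratinocytes can also make. S100a8 (ENSMUSG00000056054.9) lies at 90668978 to 90670035 on the plus strand of chromosome 3, and S100a9 (ENSMUSG00000056071.12) at 90692632 to 90695721 on the minus strand. S100a8 had 32.8, 10.8 and 23.1 CPM in the 5x21-OR1A1 libraries, against 24.1, 14.6 and 35.4 CPM in the wild-type ones. The log2 fold change was -0.14 (SE 0.41, edgeR adjusted p = 0.899). S100a9 had 50.5, 14.4 and 37.7 CPM in the 5x21-OR1A1 libraries, against 35.7, 22.5 and 54.0 CPM in the wild-type ones (log2 fold change -0.13, SE 0.44, edgeR adjusted p = 0.919). Both genes were lowest in 5x21-OR1A1 library 2 and highest in wild-type library 3. Among the 10 genes they varied most in 5x21-OR1A1 tissue, with a coefficient of variation of 49.5% for S100a8 and 53.5% for S100a9. Counting alone gives 3.74% and 3.02% at these counts, far below the spread seen.

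The ratio of the pair varied less than its level. S100a9 counts over S100a8 counts were 1.54, 1.33 and 1.63 in the 5x21-OR1A1 libraries, against 1.48, 1.54 and 1.53 in the wild-type ones, while the level of S100a9 differed 3.51-fold between the highest and lowest 5x21-OR1A1 library. Across the 6 libraries Pearson's r of log2 CPM between S100a8 and S100a9 was 0.994, a description over points that share library and depth. Without 5x21-OR1A1 library 1 the log2 fold changes were -0.54 for S100a8 and -0.52 for S100a9, and without 5x21-OR1A1 library 2 they were 0.18 and 0.24, so the sign changed with the library left out.

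Of 22 other neutrophil genes 20 were tested and 0 passed, with a median of -0.01. Ltf, lactoferrin, and Mmp9 were the most abundant, and nasal glands are known to secrete lactoferrin too. Ltf had 4859, 3967 and 4721 CPM in the 5x21-OR1A1 libraries, against 6428, 2443 and 3788 CPM in the wild-type ones. This is far above the calprotectin genes, and wild-type libraries held both extremes. Ly6g, the surface antigen that defines mouse neutrophils, had 8, 0 and 6 counts in the 5x21-OR1A1 libraries, against 4, 1 and 8 in the wild-type ones, too few to test, and a count of 0 allows up to 3 counts, for counting error only. Csf3r, the receptor for granulocyte colony-stimulating factor, averaged 3.41 ± 0.906 CPM in 5x21-OR1A1 tissue and 3.53 ± 1.62 CPM in wild-type tissue (SD, n = 3 each; edgeR adjusted p = 0.962). Ngp and Camp, which encode proteins of neutrophil granules, were singled out after their values were seen. Ngp had 16.8, 3.02 and 9.76 CPM in the 5x21-OR1A1 libraries, against 8.67, 4.37 and 10.8 CPM in the wild-type ones, and Camp had 16.4, 3.09 and 9.83 CPM in the 5x21-OR1A1 libraries, against 8.002, 5.55 and 12.7 CPM in the wild-type ones. Their Pearson's r with S100a8 over the 6 libraries was 0.953 for Ngp and 0.966 for Camp, the highest of the 20 genes of the list, which ran down to 0.048 for Fpr2 with a median of 0.599. Ltf had 0.421 and Csf3r 0.287. Of the 20 tested neutrophil genes, 10 were lowest in 5x21-OR1A1 library 2, against 12.1% of all tested genes, and 7 were lowest in wild-type library 2, against 24.7%.

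**Figure D2:**
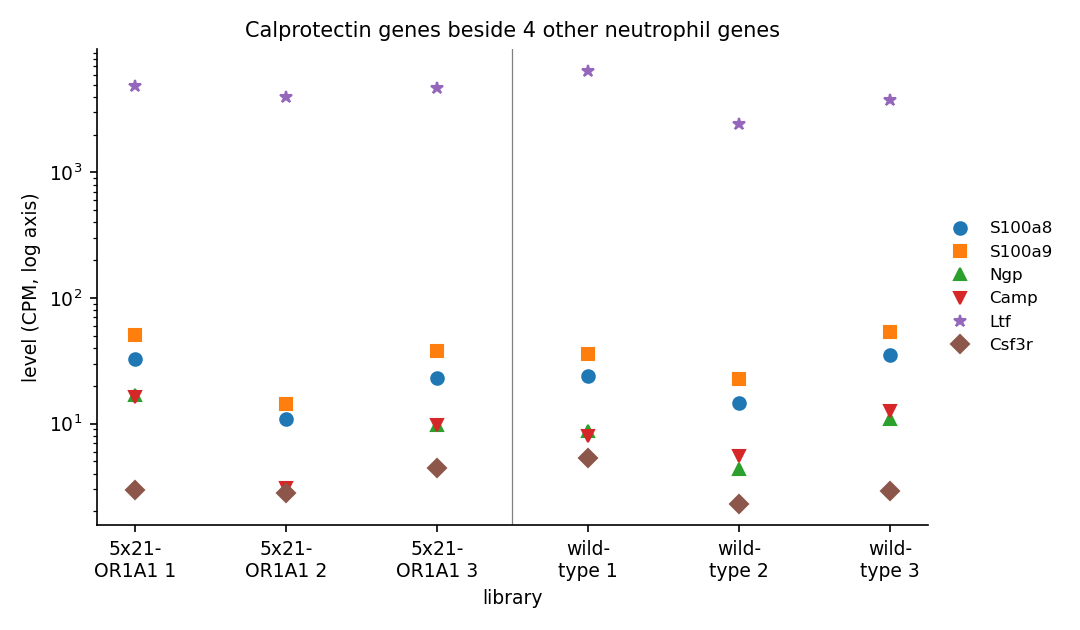
Levels of S100a8, S100a9, Ngp, Camp, Ltf and Csf3r (y axis, CPM on a log axis) in the 3 5x21-OR1A1 libraries and the 3 wild-type libraries (x axis). S100a8, S100a9, Ngp and Camp share a low point in 5x21-OR1A1 library 2, while Ltf stays at 3967 CPM there and has its low point in wild-type library 2.

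Receptors for calprotectin and chemokines that attract myeloid cells were in a further list of 12, of which 10 were tested and 0 passed (median -0.22). Tlr4 was at 12.3, 10.98 and 10.3 CPM in the 5x21-OR1A1 libraries, against 10.9, 10.9 and 12.1 CPM in the wild-type ones (edgeR adjusted p = 0.984). Ager, the receptor for advanced glycation end products, averaged 0.949 ± 0.291 CPM in 5x21-OR1A1 tissue and 1.47 ± 0.350 CPM in wild-type tissue (SD, n = 3 each; edgeR adjusted p = 0.348), with no overlap. Cxcl12, a chemokine of stromal cells, had 62.8, 63.8 and 73.8 CPM in the 5x21-OR1A1 libraries, against 57.6, 53.5 and 56.1 CPM in the wild-type ones. The groups did not overlap, but the log2 fold change of 0.26 (SE 0.09) did not pass (edgeR adjusted p = 0.173). Cx3cl1, the membrane chemokine sensed by macrophages, had a value of -0.18 (edgeR adjusted p = 0.587).

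Over all 9 related lists, 124 of 133 genes were tested and edgeR called 0, against 2.71% of all tested genes. At an unadjusted p under 0.05 there were 9 (7.26%, against 17.1% of all genes), limma-voom called 0 and DESeq2 called 4, all lower (Lgmn, Zbtb46, Psap and Ctsb). Those 4 are 3.23% of the 124, below DESeq2's share of 6.29% over all tested genes, or 4.68% counting the lower ones alone. No overlap between the groups was seen for 15 (12.1%, against 23.8%). The median of the 124 log2 fold changes was 0.03.

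**Figure D3:**
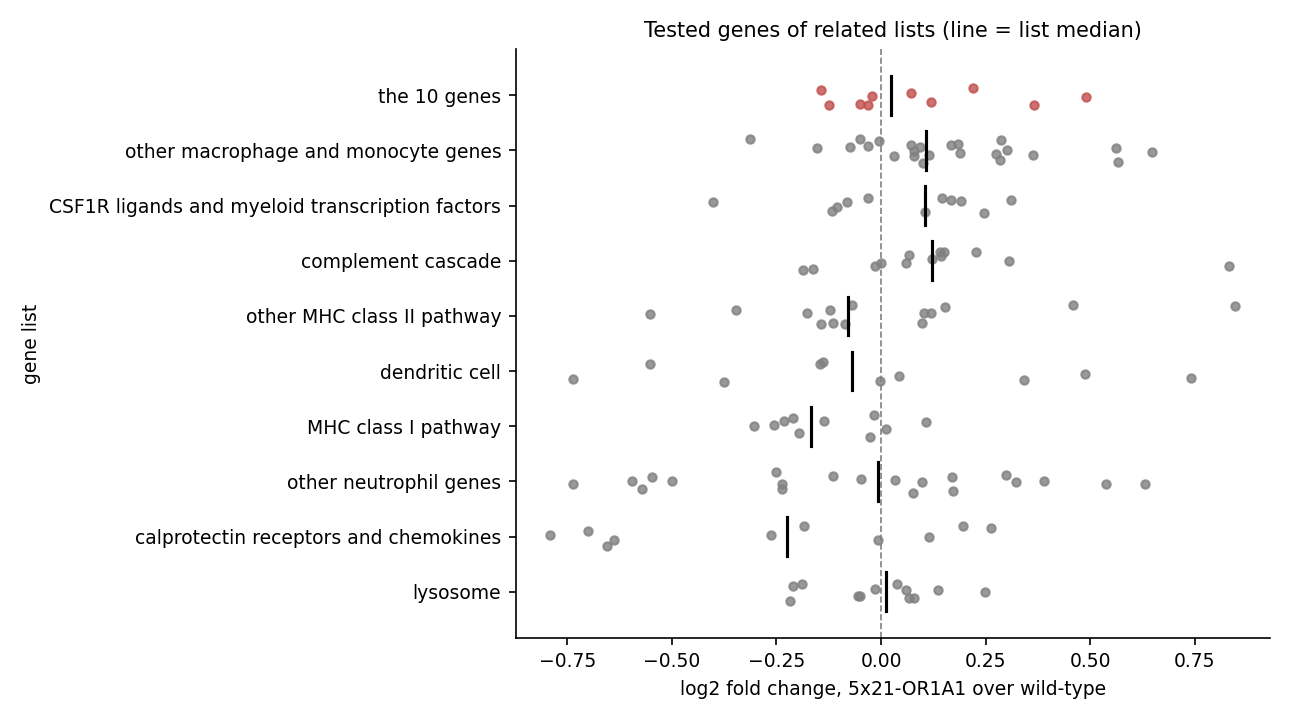
Log2 fold change, 5x21-OR1A1 over wild-type (x axis), of the 10 genes and of the tested genes of 9 related lists (rows). Points are genes and vertical lines are list medians, which run from -0.22 to 0.12, and no point passed edgeR's threshold.

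Across single libraries, the 8 genes other than the calprotectin pair were all lowest in wild-type library 2, where the median deviation from each gene's own 6-library mean was -0.54 on the log2 scale. In 5x21-OR1A1 libraries 1, 2 and 3 that median was -0.05, -0.04 and 0.32, and in wild-type libraries 1 and 3 it was 0.23 and 0.17. Of all tested genes 24.7% were lowest in wild-type library 2. In the list of other macrophage and monocyte genes 20 of 24 were lowest there, in the complement cascade 11 of 13, and in the MHC class II list 8 of 14. In the same library mature olfactory neuron markers were at their highest, with a summed 25967 CPM, against 19748 and 23074 CPM in wild-type libraries 1 and 3. Of 8 B and plasma cell genes 7 were lowest there too. Their sum was also lowest there, at 297 CPM, but Xbp1 alone made up 274 CPM of it. Xbp1 itself was lowest in 5x21-OR1A1 library 2, at 253 CPM. Whether these shifts share a source was not tested.

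**Figure D4:**
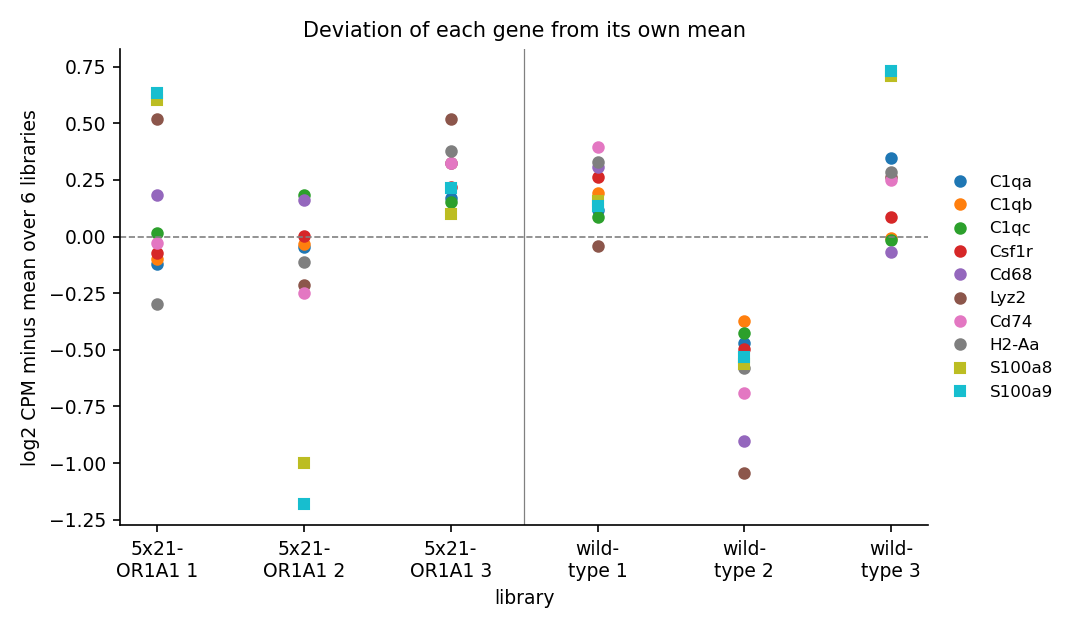
Deviation of log2 CPM from each gene's mean over the 6 libraries (y axis) in each library (x axis), with 1 colour per gene and squares for S100a8 and S100a9. The 10 genes lie below 0 in wild-type library 2, and the calprotectin pair is low in 5x21-OR1A1 library 2 (S100a9 at -1.18) while the other 8 genes lie between -0.25 and 0.18.

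Among the 8 genes, Pearson's r of log2 CPM over the 6 libraries ran from 0.63 to 0.96 in 28 pairs, with a median of 0.82. Between them and S100a8 or S100a9 it ran from 0.07 to 0.68 in 16 pairs, with a median of 0.40. All points share library, depth and scaling, and wild-type library 2 carried much of the higher median. Without it the median was 0.36 for the 28 pairs, with a lowest r of -0.42, and 0.14 for the 16 pairs, with a range from -0.88 to 0.76. The correlation of S100a8 with S100a9 was then 0.996. Without that library 7 of the 10 log2 fold changes were below 0 and 3 above, with a median of -0.17, against 5 and 5 with all libraries.

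**Figure D5:**
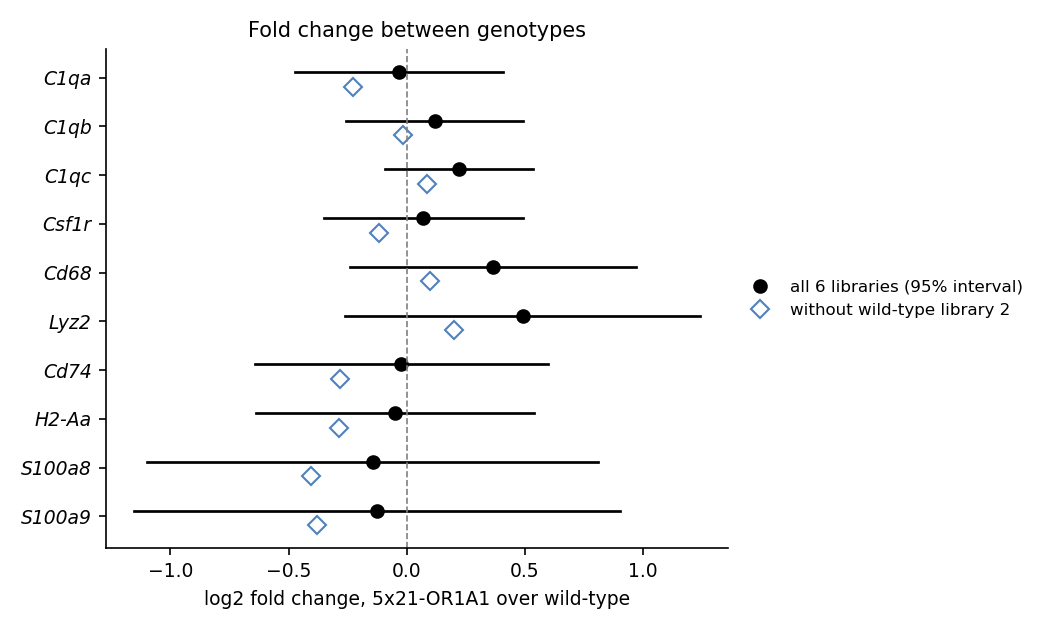
Log2 fold change, 5x21-OR1A1 over wild-type (x axis), of each gene (rows), with filled points and 95% intervals for all 6 libraries and open diamonds without wild-type library 2. Every interval crosses 0, and every diamond lies to the left of its filled point.

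The genes whose levels followed a member most closely were ranked over the 6 libraries among 16766 genes of at least 1 CPM on average, with the 10 genes themselves left out. For C1qa they were Adssl1, Aif1 and Psme1 (Pearson's r 0.997, 0.996 and 0.992), of which Aif1 encodes the macrophage protein IBA1. For H2-Aa they were Slc37a2, 1700037C18Rik and Stx8 (0.998, 0.990 and 0.990). For S100a8 they were Acot9, Naca and Gm18669 (0.994, 0.993 and 0.988). These values describe 6 points and carry no test.

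Markers of other cells that could carry these transcripts or vary with them were measured in the same way. All 8 B and plasma cell genes had log2 fold changes above 0, with a median of 0.54, beside 10199 of all 19267 tested genes above 0. Of these 8 genes 7 were lowest in wild-type library 2, against 24.7% of all tested genes. At an unadjusted edgeR p under 0.05 there were 3, against 17.1% of all tested genes. The groups did not overlap for 3, against 23.8%. After adjustment 1 of the 8 was called higher, against 0.519% of all tested genes. This was Jchain, the joining chain of secreted antibodies, at 76.1 ± 24.3 CPM in 5x21-OR1A1 tissue and 26.6 ± 9.96 CPM in wild-type tissue (SD, n = 3 each). Its log2 fold change was 1.52 (SE 0.31, edgeR adjusted p = 0.0438). Its adjusted p was 0.150 and 0.159 without 5x21-OR1A1 libraries 1 and 3, 0.0923 and 0.119 without wild-type libraries 1 and 2, and 0.0775 with sex as a covariate. None of 6 tested T and NK cell genes, 5 mast cell genes or 7 erythrocyte genes passed. Summed erythrocyte genes, a sign of blood left in the tissue, ran from 453 to 1108 CPM in 5x21-OR1A1 tissue and from 723 to 1760 CPM in wild-type tissue. They were lowest in 5x21-OR1A1 library 2, where calprotectin was lowest as well. They were highest in wild-type library 1, where summed calprotectin was 59.8 CPM. Summed calprotectin was highest in wild-type library 3, at 89.4 CPM, where the erythrocyte sum was 845 CPM. The part of blood in the calprotectin values was not tested. Of 14 mature neuron markers edgeR called 5 lower, against 2.2% of all tested genes. All 14 had log2 fold changes below 0, with a median of -0.66. The groups did not overlap for 13 of them, against 23.8% of all tested genes. Summed levels of these markers were 13469 to 14882 CPM in 5x21-OR1A1 tissue and 19748 to 25967 CPM in wild-type tissue. The count of called markers ran from 0 to 9 with 1 library left out. None of 11 supporting, basal and gland cell genes passed. Bpifb9b, a gland gene of that list, had 8805, 144 and 1421 CPM in the 5x21-OR1A1 libraries, against 6.86, 109.6 and 292 CPM in the wild-type ones (edgeR adjusted p = 0.197), so 5x21-OR1A1 library 1 stood far above the others.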

How the data were processed

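Per the labels' protocols, dissected olfactory epithelium gave nonstranded poly-A libraries sequenced from one end. The authors deposited a table of raw counts, 1 row per symbol, without normalization. Per the submitters' processing notes, TopHat2 2.1.1, HTSeq 0.9.1 and GRCm38.p5 were used. Which annotation and counting options served is not given in the sources used here.

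Genotype was tested over the 6 libraries in edgeR 4.0.16 (R 4.3.3, TMM scaling, its default expression filter, quasi-likelihood test, Benjamini-Hochberg adjustment over all genes kept). The procedure was also run on simulated data, with results not reported here. The SE is the log2 fold change over the square root of F. DESeq2 1.42.0 and limma 3.58.1 were alternatives. Correlations used log2 of CPM plus 0.5. The labels share replicate numbers, but deviations of same-numbered libraries correlated at -0.39, 0.11 and -0.09, so numbers were not taken as pairs. Same-group libraries differed by more than counting noise.

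The 10 genes and all lists were chosen with earlier results of these data known. Named genes were the 10, fixed partners, and from each list the called genes (up to 4) or the 2 most abundant. H2-Ea-ps, Hmgxb3, Ngp, Camp, Fpr2, Bpifb9b, Itgam, H2-Ob, Rps3a1, Caly and the genes present in a single library were added outside that rule, and some genes are not reported here. Coordinates and exon lengths are from GENCODE M21 and promoter windows from RefSeq (GRCm38.p6), leaving out any printed window that overlaps an annotated exon of its gene.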

Additional observations from a re-analysis of the deposited data

Results flagged for a closer look

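H2-Ea-ps, which no comparison of genotypes used, had 383 counts in 5x21-OR1A1 library 1 and at most 1 count in any of the other 5 libraries, wild-type ones included. In the check of strain it was noticed as a signal in a gene outside those tested, above the level of the wild-type libraries. It was 1 of 7 genes with at least 50 counts in that library and at least 20 times fewer in each other library, beside Akr1b7, Krt6b, Serpinb2 and 3 immunoglobulin segments. Such genes numbered 0 in 5x21-OR1A1 libraries 2 and 3, and 1, 0 and 3 in wild-type libraries 1, 2 and 3. They were Igkv4-72 in wild-type library 1, and Ambn, Amelx and Gm6594 in wild-type library 3.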

How the results depend on the processing

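All alternatives were chosen with earlier results known. The count of changed genes among the 10 was 0 and among the related genes 0 under RLE scaling, library totals, limma-voom, no filter, a filter of 1 CPM in 3 libraries, a sex covariate, the stricter threshold of 0.01 and each left-out library (0 to 0 for both). Scaling by the 14 neuron markers put the all-gene median at 0.71, against 0.02, and called 6 of the 10 genes, 73 related genes and 14962 in all, so every value there includes that shift. It turned C1qa to 0.65, Lgmn to 0.40, Laptm5 to 0.64, Zbtb46 to 0.33, Tapbp to 0.43, Cx3cl1 to 0.53, Psap to 0.48, Ctsb to 0.49 and Tlr4 to 0.69. Values that were not called there changed sign too: Cd74 to 0.64, H2-Aa to 0.62, S100a8 to 0.55 and S100a9 to 0.58. Likewise H2-Ab1 went to 0.48, H2-Eb1 to 0.55, H2-K1 to 0.37, Il34 to 0.59, C4b to 0.64, Csf3r to 0.61 and Ager to 0.03. DESeq2 called 0 of the 10, 4 related genes and 1212 in all, and why was not tested. Over all genes, 523 were called, 289 with the sex covariate, 154 at the 0.01 threshold and 150 to 626 without 1 library, where fewer samples were fitted. Over the other alternatives, 23 of 140 values of the 10 genes changed sign and 0 were called.

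With the replicate number as a block, 377 genes were called, 0 of the 10 and 0 related genes. The labels do not say whether same-numbered libraries are pairs. With that block Omp was at an edgeR adjusted p of 0.0627. Depth gave every one of the 10 genes at least 233 counts, and the spread between libraries, not counting, limits the intervals.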

Other observations

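Wild-type library 2, the lowest in 8 of the 10 genes, also stood apart in 2 genes that are not immune genes and were noticed after their values were seen. Rps3a1, a ribosomal protein gene, had 1817, 1366 and 1265 counts in the 5x21-OR1A1 libraries, against 1429, 37 and 2983 in the wild-type ones. Caly, a neuronal vesicle protein gene, had 444, 234 and 320 counts in the 5x21-OR1A1 libraries, against 153, 9 and 466 in the wild-type ones.

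Itgam, the CD11b integrin subunit of macrophages and neutrophils that also serves as a complement receptor, had 7.11, 3.57 and 4.09 CPM in the 5x21-OR1A1 libraries, against 3.27, 2.33 and 2.73 CPM in the wild-type ones. The groups did not overlap, and the log2 fold change of 0.83 (SE 0.28) did not pass (edgeR adjusted p = 0.191). H2-Ob, a chain of the modulator of class II peptide loading in B cells, had 1.99, 2.09 and 2.87 CPM in the 5x21-OR1A1 libraries, against 1.71, 0.577 and 1.59 CPM in the wild-type ones (log2 fold change 0.85, edgeR adjusted p = 0.322). Both were singled out after their values were seen.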
